A study of Mus musculus with 6 samples.

Results

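The genes described here carry transforming growth factor beta (TGF-β) and bone morphogenetic protein (BMP) signals from secreted ligands to the nucleus. They were taken from a named list of 43 genes, of which 39 had a row in the deposited table of 13072 protein-coding genes. Tgfbr2, Tgfbr3, Smad9 and Bmp2 are not analysed here. Whole retinas of C57BL/6 mice at postnatal day 7 were profiled by sequencing of polyadenylated RNA in 6 libraries. By their labels, 3 are wild-type (WT) and 3 are CTGF-/-. The second group is described as deficient in connective tissue growth factor, encoded by Ctgf, through an inducible Cre/lox system. The labels give neither the promoter that drives Cre, nor the inducing agent and its timing, nor the deleted part of the gene, and they do not say whether the WT retinas carried floxed alleles. Whether the 3 libraries of a group stem from different animals is not stated either, and the p-values therefore reflect library-to-library spread that may be technical in part.

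Ligands of this family are dimers that bring together a type II and a type I receptor, both of which are serine/threonine kinases. The type II receptor phosphorylates the type I receptor, which then phosphorylates Smad2 and Smad3 in the TGF-β and activin branch or Smad1, Smad5 and Smad9 in the BMP branch, and these enter the nucleus with Smad4 and regulate targets such as the Id genes. TGF-β is secreted in a latent form bound to latent TGF-β binding proteins. Connective tissue growth factor is itself a well-known TGF-β target and can bind TGF-β and BMP ligands. In the retina, both branches act in neural patterning, in glia and in the growing vessels.

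Values are FPKM as the authors deposited them, that is, sequenced fragments scaled by transcript length and by the mapped fragments of the library. For some members the gene value was well below that of a listed transcript. Mean WT levels were 11.6 FPKM for Id2 and 21.7 for Id2-201, and 0.574 for Tgfb1 and 1.30 for Tgfb1-201. For Id4 they were equal. Ranks between genes are therefore rough and are those of the gene values. Wherever 3 values are given for a group, they are those of replicates 1, 2 and 3 in that order, and ± marks the SD (n = 3). Differences are CTGF-/- minus WT in mean log2(FPKM + 1), a scale that understates changes of weakly expressed genes, and were tested with limma over 12915 genes with a mean of at least 0.5 FPKM. Gene totals summed to 208436 to 216436 FPKM in WT and 217674 to 230474 in CTGF-/-, and the read depth is unknown. Ctgf itself was at 0.932, 0.777 and 1.51 FPKM in WT and 0.587, 1.0 and 0.526 FPKM in CTGF-/-, so CTGF-/- replicate 2 lay within the WT range and the log2 difference of −0.28 (SE 0.17, adjusted p = 0.571) did not pass. FPKM also counts reads outside a deleted part of a gene, and WT and CTGF-/- stand below for libraries so labelled. Rod markers, all 7 of them present, summed to 876 to 1172 FPKM in WT and 1172 to 1297 FPKM in CTGF-/-. The 6 lens markers summed to 0.993 and 1.28 FPKM in WT replicates 2 and 3, to 286 in WT replicate 1 and to 131 to 2221 in CTGF-/-. Transcripts with a value of 0 numbered 1875 in CTGF-/- replicate 2 and 716 to 861 elsewhere.

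No member of the pathway passed the test between CTGF-/- and WT retinas. The smallest p-values belonged to the target genes Id4 and Id1 and to the BMP receptor genes Bmpr2 and Bmpr1a. The mean FPKM was 28.1% lower for Id4, 26.3% lower for Id1, 21.9% lower for Bmpr2 and 16.0% lower for Bmpr1a. Of the 38 members tested, 0 were past the adjusted limma threshold of 0.05, which 6 genes (0.0465%) passed in the whole table. At an unadjusted p under 0.05, 4 members were lower and 0 higher, where 5.49% of all genes tested were lower and 3.83% higher. In either direction this was 10.5% of the members and 9.32% of all genes, so the members' share was close to the background.

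By sign alone, 32 of the 38 members had a negative log2 difference and 6 a positive one, against 55.1% negative among all genes. The median log2 difference was −0.12 over the members and −0.022 over all genes. All CTGF-/- libraries lay below all WT libraries for 11 members, or 28.9%, and above them for 1, where 10.9% of all genes lay below and 7.53% above. These 11 genes were Id4, Id1, Bmpr2, Bmpr1a, Tgfb2, Smad3, Acvr2a, Zfyve9, Skil, Tgfb1 and Fst, and the 1 gene above was Acvr1b. The 6 members with a positive difference were Acvr1b, Smad6, Smad7, Smurf1, Ski and Id2. Tgfb1 and Chrd were above the authors' minimum of about 0.5 FPKM for a group mean only in WT, as was Bmp4, which fell below the minimum for testing. Fewer cells of a type and less RNA per cell cannot be told apart in whole retinas.

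**Figure D1:**
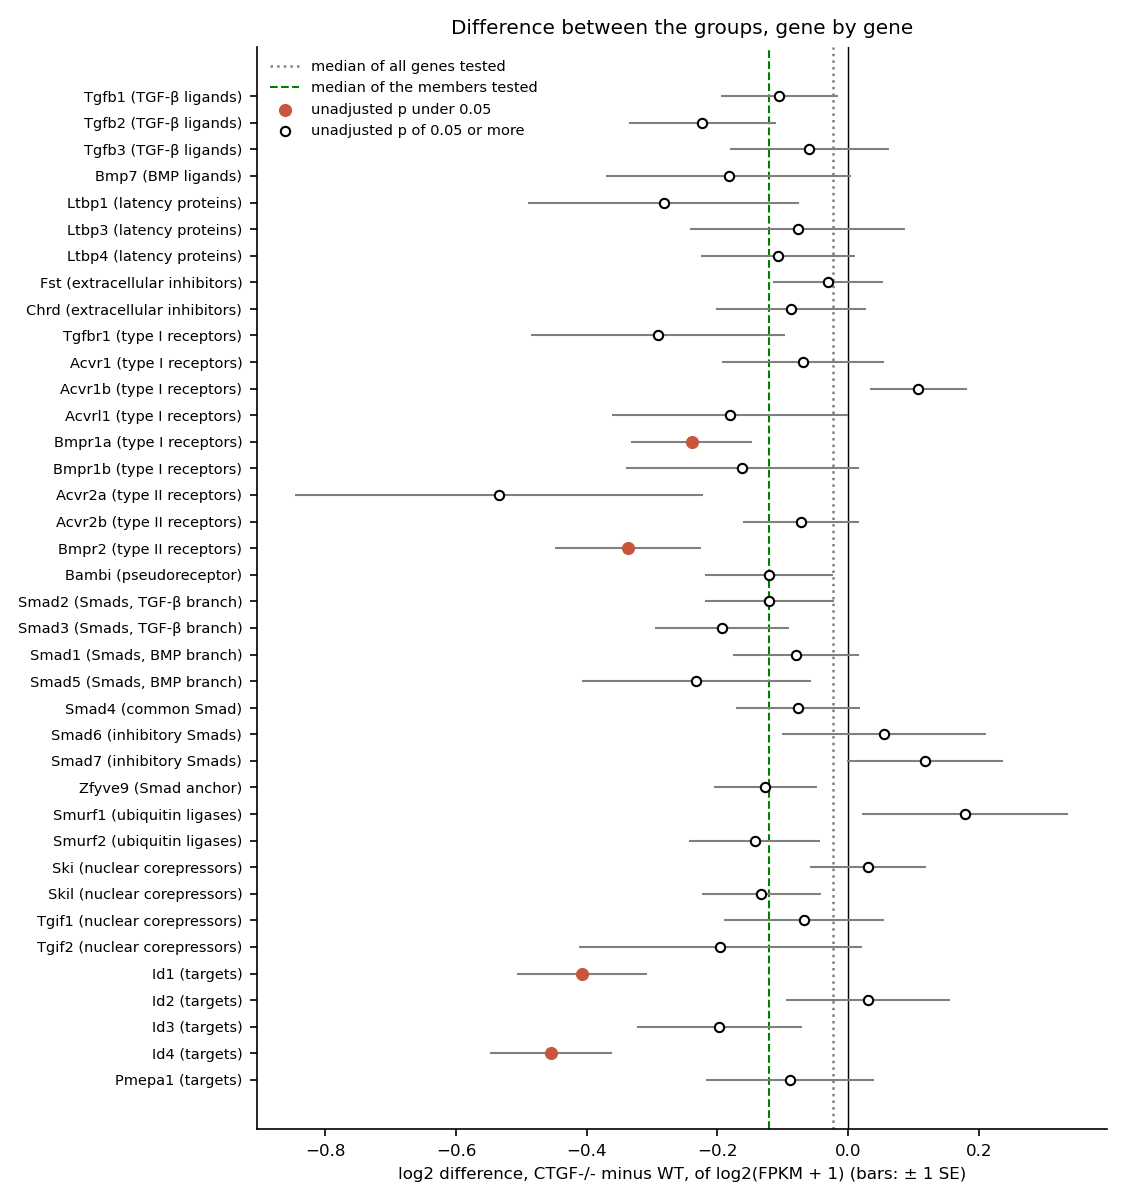
Log2 difference (CTGF-/- minus WT) of the 38 tested TGF-β and BMP signalling genes, ordered by role, with bars of 1 SE. Filled points mark the 4 genes with an unadjusted p under 0.05, and most points lie left of 0, around a median of −0.12 against −0.022 for all genes.

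Single libraries carried part of these differences. WT replicate 3 was the highest of the 6 libraries for 14 of the 38 members (36.8%), and for 17.2% of all genes. CTGF-/- replicate 2 was the lowest for 16 members (42.1%), and for 31.7% of all genes. WT replicate 3 also held the highest sums of endothelial markers (55.2 FPKM, against 46.4 and 47.0 in the other WT libraries), of pericyte and smooth muscle markers (20.4, against 13.4 and 10.2) and of erythroid genes (612, against 188 and 94.6). The same library was the highest of the 6 for Mueller glia markers (381 FPKM, followed by 370 in WT replicate 1). It was also the highest for pigment epithelium markers (50.6 FPKM, followed by 49.8 in CTGF-/- replicate 3). It was the lowest for cone (81.1 FPKM) and microglia markers (17.0 FPKM).

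**Figure D2:**
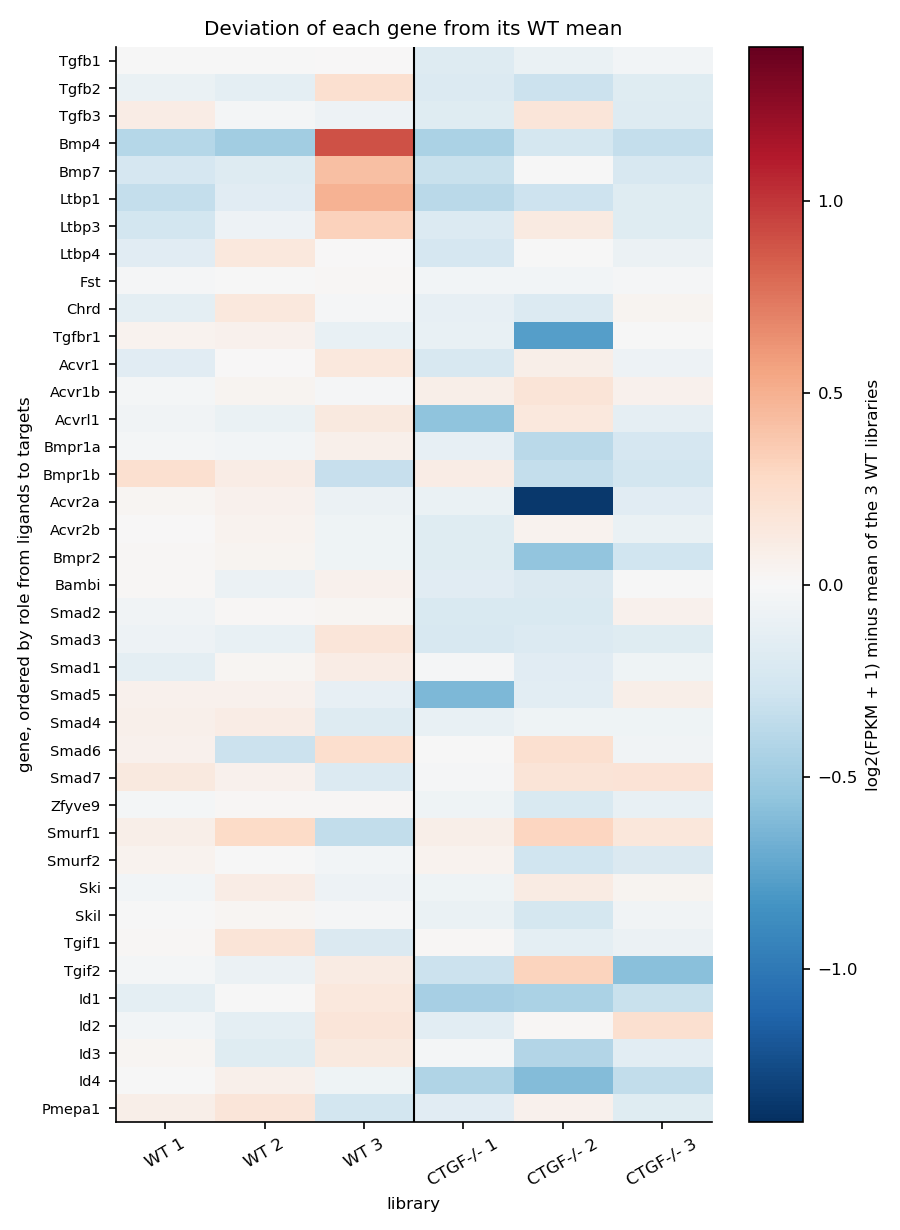
Log2(FPKM + 1) of the 39 genes in each library minus the mean of the 3 WT libraries, with genes ordered by role from ligands to targets. Red is above and blue below the WT mean: Bmp4, Bmp7, Ltbp1 and Ltbp3 are reddest in WT replicate 3, Acvr2a and Tgfbr1 are deep blue in CTGF-/- replicate 2, and the rows of Id1 and Id4 are blue in all 3 CTGF-/- libraries.

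Among the TGF-β ligands, which in tissue act on vessels, glia and matrix production, Tgfb2 dominated in both groups. It supplied 72.2% to 78.8% of the summed FPKM of Tgfb1, Tgfb2 and Tgfb3 in WT and 68.1% to 75.4% in CTGF-/-. Tgfb2 (ENSMUSG00000039239.14, chromosome 1, 186622792 to 186705989, minus strand) was at 18.8, 18.3 and 23.8 FPKM in WT and 17.6, 16.1 and 17.8 FPKM in CTGF-/-. The groups did not overlap, yet WT replicate 3 stood well above the rest, and the log2 difference of −0.22 (SE 0.11, adjusted p = 0.553) was −0.11 without that library. Tgfb3 was at 6.69, 6.05 and 5.81 FPKM in WT and 5.36, 7.09 and 5.34 FPKM in CTGF-/-, with overlapping groups. Tgfb1, whose product is the best studied of the 3 ligands, was the weakest, at 0.568, 0.571 and 0.584 FPKM in WT and 0.389, 0.471 and 0.535 FPKM in CTGF-/-. Its groups were separate by a narrow margin at this low level.

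BMP ligand genes were expressed at low levels. Bmp7, which takes part in eye and lens formation, was the more abundant, at 1.404, 1.497 and 2.78 FPKM in WT and 1.28, 1.81 and 1.42 FPKM in CTGF-/-. WT replicate 3 alone was high, and the log2 difference of −0.18 (SE 0.19, adjusted p = 0.705) turned to 0.027 without it. Bmp4, which marks the dorsal retina during patterning and binds connective tissue growth factor, was at 0.191, 0.119 and 1.91 FPKM in WT and 0.158, 0.320 and 0.245 FPKM in CTGF-/-. Its mean over all libraries was below 0.5 FPKM, so it was not tested, and again WT replicate 3 was the one high library.

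The latent TGF-β binding protein genes, which tether latent TGF-β to the matrix, were led by Ltbp3, at 5.26, 6.11 and 8.32 FPKM in WT and 5.55, 7.15 and 5.61 FPKM in CTGF-/-. Its groups overlapped (log2 difference −0.077, SE 0.17, adjusted p = 0.866), and the sign turned without WT replicate 3 (0.084). Ltbp1 stood at 0.510, 0.702 and 1.67 FPKM in WT and 0.460, 0.550 and 0.686 FPKM in CTGF-/-, high in WT replicate 3 only, and its log2 difference was −0.28 with all libraries and −0.037 without that one. Ltbp4 had mean levels of 1.16 ± 0.231 in WT and 1.002 ± 0.165 FPKM in CTGF-/-. Of the extracellular inhibitors, Fst encodes follistatin, which binds activins, and had very even levels of 0.796, 0.814 and 0.833 FPKM in WT and 0.772, 0.767 and 0.788 FPKM in CTGF-/-. The CTGF-/- values lay just below the WT values, and the log2 difference was only −0.031 (SE 0.084, adjusted p = 0.896). Chrd, whose product chordin binds BMPs, was at 0.590 ± 0.156 in WT and 0.494 ± 0.123 FPKM in CTGF-/-.

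**Figure D3:**
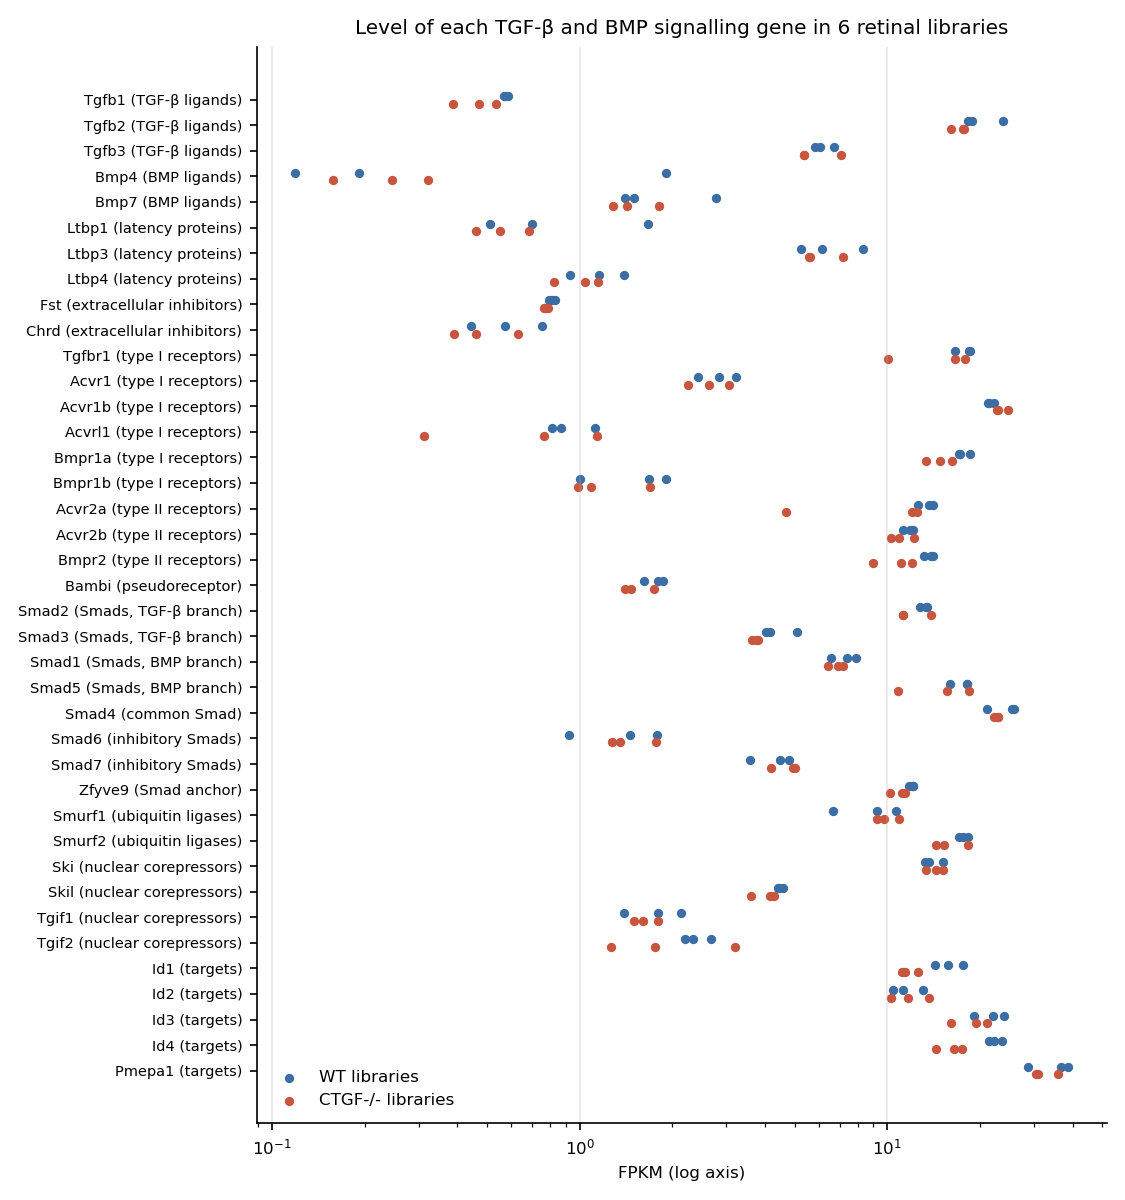
FPKM of the 39 genes in each of the 6 libraries on a log axis, with WT in blue and CTGF-/- in red, ordered by role. Levels run from under 1 FPKM (Tgfb1, Bmp4, Fst, Chrd) to 33.5 FPKM on average for Pmepa1, and differences between genes are far larger than those between the groups.

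Among the receptor genes, the unadjusted p was under 0.05 for Bmpr2 and Bmpr1a, neither of which passed the adjusted threshold. Bmpr2 (ENSMUSG00000067336.6, chromosome 1, 59763400 to 59879014, plus strand) encodes the type II receptor for BMPs and stood at 13.9, 14.1 and 13.1 FPKM in WT and 12.03, 8.98 and 11.1 FPKM in CTGF-/-. Every CTGF-/- library was below every WT library, with CTGF-/- replicate 2 the lowest, and the log2 difference was −0.34 (SE 0.11, adjusted p = 0.533). Bmpr1a (ENSMUSG00000021796.15, chromosome 14, 34410734 to 34503341, minus strand), a type I BMP receptor gene, was at 17.2, 17.1 and 18.5 FPKM in WT and 16.2, 13.3 and 14.8 FPKM in CTGF-/-. These groups did not overlap either, with a log2 difference of −0.24 (SE 0.092, adjusted p = 0.533). Bmpr1a supplied 90.0% to 94.9% of the summed FPKM of Bmpr1a and Bmpr1b in WT and 90.5% to 93.2% in CTGF-/-. With 1 library left out in turn, the unadjusted p of Bmpr2 stayed under 0.05 in 4 of 6 fits and that of Bmpr1a in 1 of 6. The log2 differences in those fits were −0.42 to −0.23 for Bmpr2 and −0.30 to −0.17 for Bmpr1a.

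The largest fitted difference of the list was that of Acvr2a, a type II receptor gene for activins and BMPs, and it came from 1 library. Acvr2a was at 13.7, 14.1 and 12.6 FPKM in WT and 12.5, 4.67 and 12 FPKM in CTGF-/-. CTGF-/- replicate 2 was far below all others, and the log2 difference of −0.53 (SE 0.31, adjusted p = 0.57) was −0.13 without it. Tgfbr1, the type I receptor gene for TGF-β, followed the same libraries, at 18.4, 18.6 and 16.5 FPKM in WT and 16.5, 10.04 and 17.8 FPKM in CTGF-/-. Only CTGF-/- replicate 2 was outside the WT range by much, and the log2 difference went from −0.29 to −0.052 without it. Acvr2b, the other activin type II receptor gene, was at 11.7 ± 0.456 in WT and 11.1 ± 0.964 FPKM in CTGF-/-.

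Acvr1b, the type I activin receptor gene and, by gene FPKM, the most abundant type I receptor gene here, was the 1 member with every CTGF-/- library above every WT library. It was at 21.3, 22.3 and 21.4 FPKM in WT and 22.9, 24.7 and 22.7 FPKM in CTGF-/-. The log2 difference was 0.11 (SE 0.074, adjusted p = 0.601) and so did not pass. Acvrl1, the endothelial type I receptor gene, was weakly expressed at 0.935 ± 0.163 in WT and 0.737 ± 0.413 FPKM in CTGF-/-, and its log2 difference of −0.18 was 0.0079 without CTGF-/- replicate 1. Bmpr1b had mean levels of 1.53 ± 0.474 in WT and 1.26 ± 0.384 FPKM in CTGF-/-. Bambi, a pseudoreceptor without kinase activity that dampens signalling, was at 1.79, 1.61 and 1.87 FPKM in WT and 1.47, 1.399 and 1.74 FPKM in CTGF-/-, with overlapping groups (log2 difference −0.12, SE 0.098, adjusted p = 0.64).

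**Figure D4:**
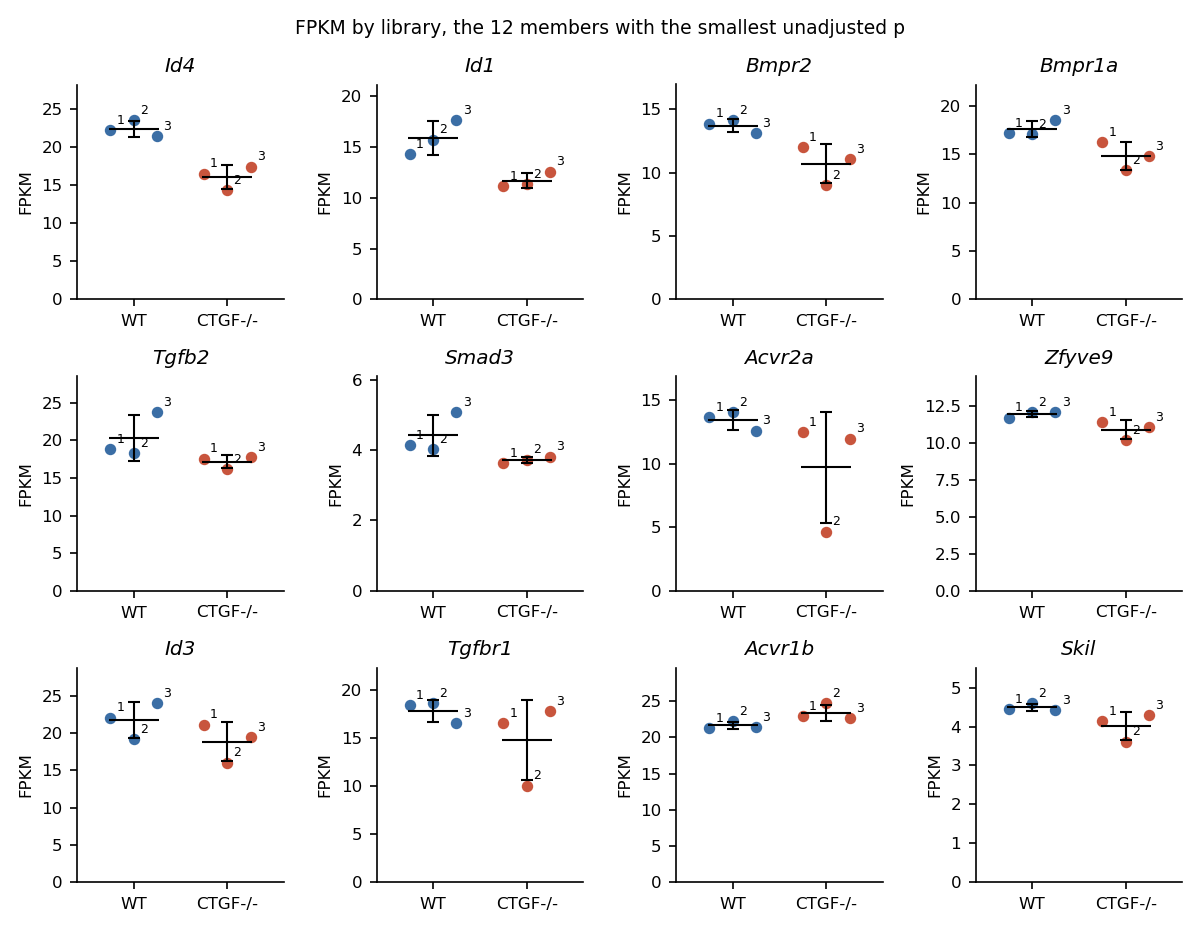
FPKM in each library for the 12 members with the smallest unadjusted p; points are libraries, numbered by replicate, and bars give the mean ± SD of 3. The groups are separate for all of these genes except Id3 and Tgfbr1, with CTGF-/- above WT only for Acvr1b. For Acvr2a and Tgfbr1, CTGF-/- replicate 2 alone sets the spread.

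Among the Smads, the common partner Smad4 was the most abundant, at 25.3, 25.9 and 21.1 FPKM in WT and 22.2, 23.0 and 22.9 FPKM in CTGF-/-. WT replicate 3 was the lowest library of all, and the groups overlapped (log2 difference −0.077, SE 0.095, adjusted p = 0.752). In the TGF-β branch, Smad2 was at 12.7, 13.3 and 13.5 FPKM in WT and 11.3, 11.2 and 13.8 FPKM in CTGF-/- and overlapped as well (log2 difference −0.12, SE 0.099, adjusted p = 0.646). Smad3 was at 4.14, 4.02 and 5.09 FPKM in WT and 3.63, 3.73 and 3.81 FPKM in CTGF-/-. For Smad3 the groups did not overlap, with WT replicate 3 the high library, and the log2 difference of −0.19 (SE 0.10, adjusted p = 0.554) was −0.11 without it. In the BMP branch, Smad5 was at 18.1, 18.1 and 16.0 FPKM in WT and 10.9, 15.6 and 18.4 FPKM in CTGF-/-. CTGF-/- replicate 1 alone was low, and the log2 difference of −0.23 was −0.032 without it. Smad1 had mean levels of 7.30 ± 0.697 in WT and 6.84 ± 0.377 FPKM in CTGF-/-.

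The inhibitory Smads, which block receptors and are themselves induced by the pathway, had positive log2 differences that did not pass. Smad7 was at 4.78, 4.47 and 3.59 FPKM in WT and 4.20, 4.95 and 5.002 FPKM in CTGF-/- (log2 difference 0.12, SE 0.12, adjusted p = 0.701). Smad6, the inhibitor of the BMP branch, had mean levels of 1.39 ± 0.435 in WT and 1.47 ± 0.266 FPKM in CTGF-/-. The groups of both genes overlapped. Without WT replicate 3 the log2 difference of Smad7 was 0.02, and that of Smad6 turned from 0.055 to −0.093 without WT replicate 2 and to −0.032 without CTGF-/- replicate 2. Zfyve9, also named SARA, encodes the anchor that presents Smad2 and Smad3 to the receptor, and was at 11.7, 12.1 and 12.1 FPKM in WT and 11.4, 10.2 and 11.1 FPKM in CTGF-/-. Its groups were just separate, with a log2 difference of −0.13 (SE 0.079, adjusted p = 0.579).

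Ubiquitin ligases of the Smurf pair mark receptors and Smads for degradation. Smurf2 was at 18.3, 17.6 and 17.1 FPKM in WT and 18.3, 14.4 and 15.3 FPKM in CTGF-/-, and CTGF-/- replicate 1 lay within the WT range (log2 difference −0.14, SE 0.10, adjusted p = 0.606). Smurf1 had mean levels of 8.83 ± 2.03 in WT and 9.99 ± 0.836 FPKM in CTGF-/-, with overlapping groups (log2 difference 0.18, SE 0.16, adjusted p = 0.668). This was the largest positive difference of the list, and it was 0.0076 without WT replicate 3. Of the nuclear corepressors, Ski was at 13.6, 15.2 and 13.2 FPKM in WT and 13.3, 15.2 and 14.4 FPKM in CTGF-/-, close to equal in the groups. Skil, also named SnoN, was at 4.45, 4.59 and 4.42 FPKM in WT and 4.15, 3.61 and 4.29 FPKM in CTGF-/-. The CTGF-/- libraries lay below the WT libraries by a small margin, with a log2 difference of −0.13 (SE 0.091, adjusted p = 0.601). Tgif1 and Tgif2, which encode homeodomain corepressors, had mean levels of 1.78 ± 0.372 in WT and 1.64 ± 0.149 FPKM in CTGF-/- for Tgif1 and of 2.41 ± 0.241 in WT and 2.07 ± 1.01 FPKM in CTGF-/- for Tgif2. The negative log2 difference of Tgif1 (−0.068) turned to 0.024 without WT replicate 2, and that of Tgif2 (−0.20) to 0.0015 without CTGF-/- replicate 3.

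The target genes held the 2 smallest p-values of the list. The Id proteins are inhibitors of basic helix-loop-helix transcription factors and keep progenitors and glia from differentiating. Id4 (ENSMUSG00000021379.2, chromosome 13, 48261228 to 48266026, plus strand) was at 22.3, 23.6 and 21.4 FPKM in WT and 16.5, 14.4 and 17.4 FPKM in CTGF-/-. All CTGF-/- libraries were well below all WT libraries, with a log2 difference of −0.45 (SE 0.093, adjusted p = 0.533). Id1 (ENSMUSG00000042745.9, chromosome 2, 152736251 to 152737410, plus strand), a direct BMP target, was at 14.3, 15.7 and 17.6 FPKM in WT and 11.1, 11.4 and 12.6 FPKM in CTGF-/-. Its groups were separate too, with a log2 difference of −0.41 (SE 0.099, adjusted p = 0.533). For both genes the unadjusted p was under 0.05 in all 6 fits that left out 1 library, with log2 differences of −0.51 to −0.38 for Id4 and −0.48 to −0.33 for Id1. The adjusted p over all alternatives was 0.415 to 0.807 for Id4 and 0.417 to 0.807 for Id1. In GENCODE M21, the exons of Id4 overlap those of A330033J07Rik and Gm49291 on the other strand. Libraries were made strand-specific per the labels, but they do not state the strand setting of the quantification, so reads of the overlapping genes may not be told apart. The same limit touches 9 of the 32 members found in that annotation with their ID and version, among them Bmpr1a, Tgfb2, Acvr2a and Zfyve9. Smurf2 and Smad5 share exonic bases with a gene on the same strand, Id1 and Bmpr2 share none, and the other 7 members were not checked.

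The other Id genes differed less. Id3 was at 22.1, 19.2 and 23.99 FPKM in WT and 21.1, 16.0 and 19.4 FPKM in CTGF-/-, and 2 of the 3 CTGF-/- libraries lay within the WT range (log2 difference −0.20, SE 0.13, adjusted p = 0.589). The difference was −0.09 without CTGF-/- replicate 2 and −0.13 without WT replicate 3. Id2 was at 11.2, 10.4 and 13.1 FPKM in WT and 10.3, 11.6 and 13.6 FPKM in CTGF-/-, with no separation at all (log2 difference 0.03, SE 0.13, adjusted p = 0.931), and its sign turned without WT replicate 2 (−0.037), without CTGF-/- replicate 3 (−0.067) and at equal FPKM totals (−0.046). The summed FPKM of Id1 to Id4 was 68.8 to 76.1 in WT and 53.5 to 63.1 in CTGF-/-. Pmepa1, a TGF-β target that limits Smad signalling, was the most abundant member, at 36.5, 38.8 and 28.6 FPKM in WT and 30.8, 35.8 and 30.4 FPKM in CTGF-/-. WT replicate 3 was its lowest library, and the groups overlapped (log2 difference −0.089, SE 0.13, adjusted p = 0.791).

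Cell type markers are given beside these values, and their part in the result was not tested. Among all genes 55.1% had negative log2 differences. Of the endothelial markers, 9 of 9 had negative log2 differences, with sums of 46.4 to 55.2 FPKM in WT and 37.7 to 39.0 FPKM in CTGF-/-, of which Kdr made 27.3 to 38.5. Retinal progenitor and cell cycle markers were negative in 5 of 5, with sums of 98.9 to 159.9 FPKM in WT and 93.6 to 108 FPKM in CTGF-/-. Mueller glia markers were negative in 4 of 5, with sums of 346 to 381 FPKM in WT and 332 to 366 FPKM in CTGF-/-, and astrocyte markers in 1 of 3, with sums of 5.77 to 6.26 FPKM in WT and 4.62 to 6.32 FPKM in CTGF-/-. The endothelial sums, which are mostly Kdr, did not overlap between the groups, and those of the progenitor, Mueller glia and astrocyte lists did. Cone sums were also separate, at 81.1 to 91.9 FPKM in WT and 100 to 118 FPKM in CTGF-/-. So were microglia sums, at 17.0 to 18.9 FPKM in WT and 19.0 to 22.3 FPKM in CTGF-/-. Taken singly, Kdr, Flt1 and Cd34 were lower in every CTGF-/- library than in every WT library. Esam, Tek, Pecam1, Cdh5, Tie1 and Cldn5 overlapped. Of the other lists, Cdk1, Glul and Gfap also lay wholly below WT. Pde6b, Nr2e3, Nrl, Sag, Rom1, Gnat2, Opn1sw, C1qa and Tyr lay wholly above. Among all genes, 10.9% lay below and 7.53% above. Log2 differences were positive for 7 of 7 rod, 3 of 4 cone, 4 of 4 pigment epithelium, 6 of 6 lens and 2 of 4 microglia markers. They were negative for 3 of 4 ganglion cell, 2 of 3 pericyte and smooth muscle and 4 of 5 erythroid markers. These counts cover markers with a row, which Emcn, Cspg4, Tagln, Myh11 and Rpe65 lacked. From a list for Schwann cells and meninges only Col1a1 had a row, with a positive log2 difference. None of these markers passed the adjusted limma threshold, and none was listed at 0 in any library, except for 3 of the lens markers.

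Promoter sequences of 3 Id genes are shown because Id4 and Id2, with different results, can be compared with Id3. They come from RefSeq on GRCm38.p6 and run from 250 bases before to 50 bases after the annotated start. Capitals mark the motif GGCGCC, known from BMP-responsive elements of Id genes, and CAGAC or its reverse complement GTCTG, the Smad-binding box; both strands were searched. The RefSeq start of Id4 is base 48261116 and that of Id3 base 136143822, whereas the deposited genes begin at 48261228 and 136143497. For Id2, on the minus strand, the RefSeq start is base 25096092 and the deposited gene begins at 25097140. All of these deposited gene starts lie outside the windows shown. Id1 was not matched.
Id4 (chr13:48260866-48261165, plus strand): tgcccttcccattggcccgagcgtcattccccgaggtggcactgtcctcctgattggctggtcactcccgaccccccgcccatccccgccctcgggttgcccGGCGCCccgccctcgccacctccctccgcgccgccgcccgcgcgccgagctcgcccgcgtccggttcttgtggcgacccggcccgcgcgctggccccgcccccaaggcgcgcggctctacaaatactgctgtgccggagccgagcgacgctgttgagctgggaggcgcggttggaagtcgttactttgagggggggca
Id3 (chr4:136143572-136143871, plus strand): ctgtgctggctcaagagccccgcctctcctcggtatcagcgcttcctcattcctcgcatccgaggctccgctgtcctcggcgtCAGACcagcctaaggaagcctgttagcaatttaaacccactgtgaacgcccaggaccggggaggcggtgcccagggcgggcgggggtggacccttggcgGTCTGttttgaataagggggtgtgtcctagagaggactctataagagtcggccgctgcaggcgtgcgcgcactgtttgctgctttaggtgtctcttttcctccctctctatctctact
Id2 (chr12:25096043-25096342, minus strand): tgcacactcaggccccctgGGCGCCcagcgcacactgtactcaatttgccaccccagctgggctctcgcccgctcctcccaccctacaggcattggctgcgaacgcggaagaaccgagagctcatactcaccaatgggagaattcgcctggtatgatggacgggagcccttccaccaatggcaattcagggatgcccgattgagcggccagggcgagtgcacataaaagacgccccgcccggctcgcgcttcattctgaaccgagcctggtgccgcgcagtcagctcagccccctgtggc

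GGCGCC occurred once in the window of Id4, its first base 148 bases before the start, and once in that of Id2, at 231 bases before the start. Id3 held CAGAC at 167 and GTCTG at 68 bases before the start and no GGCGCC. Of all 32851 promoter windows, 11.9% held GGCGCC and 49.6% held CAGAC or GTCTG. Of the 28 members matched to the table, 11 held GGCGCC in at least 1 window, that is 13 of 40 windows, and 17 of those windows held CAGAC or GTCTG. Id4 and Id2, with log2 differences of −0.45 and 0.03, both hold the GGCGCC letters. Neither difference passed the adjusted threshold, and bases further upstream were not searched. A link between motif and difference was not tested.

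The deposited transcript table lists 71 transcripts of 37 members, of which 63 were tested among 25082. None passed the adjusted threshold in limma, which 6 transcripts (0.0239%) passed in the whole table. At an unadjusted p under 0.05, 6 member transcripts were lower (9.52%, against 2.53% of all transcripts) and 3 higher (4.76%, against 2.52%). Id4-201 is the only listed transcript of Id4 and has the values of the gene. Id1-201, the spliced transcript that carries most of Id1, was at 16.6, 16.9 and 20.3 FPKM in WT and 11.99, 12.6 and 14.2 FPKM in CTGF-/-, all CTGF-/- libraries lower (log2 difference −0.44, SE 0.12, adjusted p = 0.819).

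Acvr1, the type I receptor gene also named ALK2, held the 2 member transcripts with the smallest p, with differences of opposite sign, neither of which passed. The gene was at 2.43, 2.83 and 3.23 FPKM in WT and 2.26, 3.05 and 2.64 FPKM in CTGF-/- (log2 difference −0.069, SE 0.12, adjusted p = 0.836), and its sign turned without WT replicate 3 or CTGF-/- replicate 1. Acvr1-201 stood at 0.662, 0.662 and 1.11 FPKM in WT and 2.96, 4.47 and 3.14 FPKM in CTGF-/-. Every CTGF-/- library was more than 2 times the highest WT library, with a log2 difference of 1.31 (SE 0.22, adjusted p = 0.473). Acvr1-203 stood at 3.24, 3.67 and 2.76 FPKM in WT and 0.636, 1.10 and 0.00882 FPKM in CTGF-/-, with all CTGF-/- libraries low and a log2 difference of −1.47 (SE 0.31, adjusted p = 0.819). The third listed transcript, Acvr1-204, was at 0.237, 0.429 and 0.694 FPKM in WT and 0.649, 0.283 and 1.71 FPKM in CTGF-/-, with overlapping groups.

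As a share of the summed FPKM of the 3 transcripts, Acvr1-201 made 16.0%, 13.9% and 24.4% in WT and 69.7%, 76.4% and 64.6% in CTGF-/-. Acvr1-203 made 78.2%, 77.1% and 60.4% in WT and 15.0%, 18.7% and 0.181% in CTGF-/-. In GENCODE M21 on GRCm38 the 3 transcripts have the same coding sequence of 1527 bases and differ in their ends. Acvr1-201 starts at position 58567157 of chromosome 2 and Acvr1-203 at 58516272, which is 50885 bases downstream on the minus strand, and Acvr1-203 also ends 715 bases further downstream. Only 7 exonic bases of Acvr1-203 are in neither of the others, against 329 for Acvr1-201 and 28 for Acvr1-204, so their FPKM depend on how reads of shared exons were assigned. The RefSeq promoter of Acvr1 is shown because its annotated start, base 58566828, is also the start of Acvr1-204. It holds neither motif, and it includes the start of neither Acvr1-201 nor Acvr1-203.
Acvr1 (chr2:58566779-58567078, minus strand): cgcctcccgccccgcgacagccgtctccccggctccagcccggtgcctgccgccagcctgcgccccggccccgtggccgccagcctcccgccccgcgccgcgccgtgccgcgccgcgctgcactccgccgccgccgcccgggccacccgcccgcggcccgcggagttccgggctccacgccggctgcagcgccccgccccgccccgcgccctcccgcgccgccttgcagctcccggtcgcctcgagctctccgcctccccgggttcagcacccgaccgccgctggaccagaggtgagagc

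**Figure D5:**
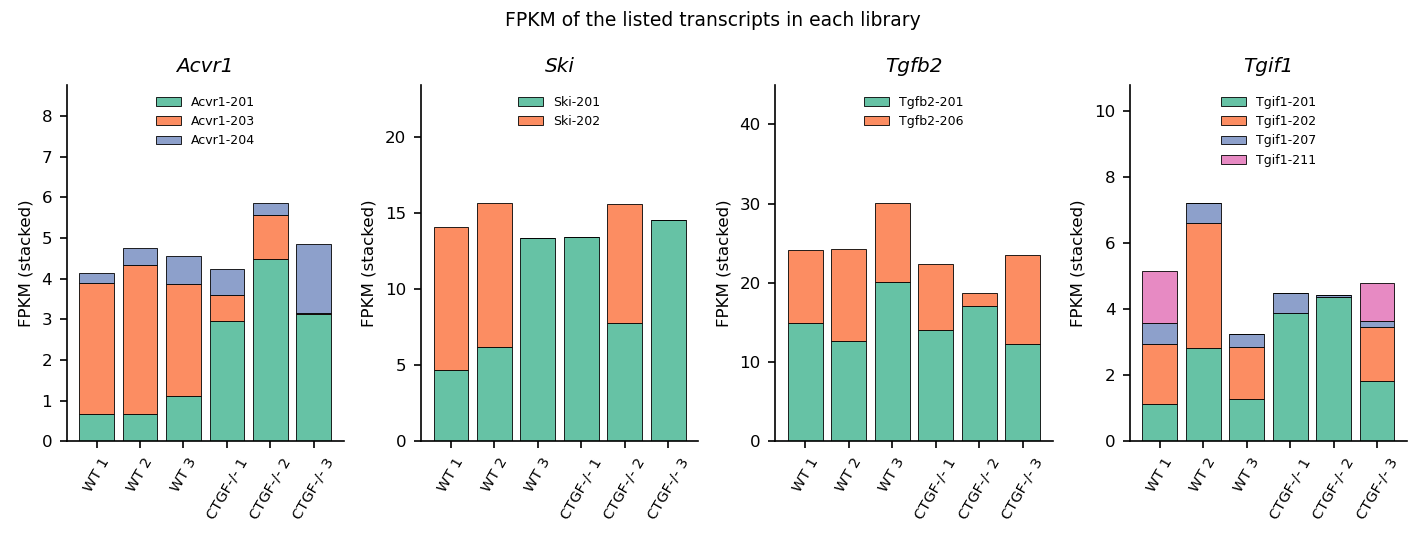
Stacked FPKM of the listed transcripts of Acvr1, Ski, Tgfb2 and Tgif1 in each library. For Acvr1 the main transcript is Acvr1-203 in all 3 WT libraries and Acvr1-201 in all 3 CTGF-/- libraries, while Ski changes its main transcript between libraries of the same group.

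Other genes had transcript values that jumped between libraries of 1 group. Ski-202 was at 9.40, 9.41 and 0 FPKM in WT and 0, 7.86 and 0 FPKM in CTGF-/-, so it was listed at 0 in WT replicate 3 and in CTGF-/- replicates 1 and 3, although the gene as a whole stayed between 13.2 and 15.2 FPKM. Every exonic base of Ski-202 is shared with Ski-201. Tgfb2-206 was at 9.31, 11.6 and 9.95 FPKM in WT and 8.40, 1.68 and 11.2 FPKM in CTGF-/-, low in CTGF-/- replicate 2 alone, where Tgfb2-201 was at 17.0 FPKM, the second highest of the 6 libraries. Tgif1-202 was at 1.81, 3.78 and 1.58 FPKM in WT and 0, 0 and 1.65 FPKM in CTGF-/-, listed at 0 in CTGF-/- replicates 1 and 2 but not in replicate 3.

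Bmpr2-201, the only listed transcript of Bmpr2, was at 19.3, 19.6 and 18.2 FPKM in WT and 16.7, 12.5 and 15.4 FPKM in CTGF-/-, all CTGF-/- libraries lower as for the gene (log2 difference −0.34, SE 0.13, adjusted p = 0.819). Its deposited values were higher than those of the gene in every library. The remaining transcripts with an unadjusted p under 0.05 were Tgif1-202, given above (log2 difference −1.24, SE 0.47), and transcripts of Smad2, Smad4 and Skil. Smad2-203 was at 0.992, 2.07 and 1.06 FPKM in WT and 3.55, 4.30 and 2.02 FPKM in CTGF-/-, with CTGF-/- replicate 3 just below WT replicate 2 (log2 difference 0.84, SE 0.30, adjusted p = 0.819). Smad4-202, a minor transcript of Smad4, was at 1.04, 0.148 and 0.217 FPKM in WT and 1.70, 1.81 and 0.969 FPKM in CTGF-/-, and CTGF-/- replicate 3 lay just below WT replicate 1 (log2 difference 0.80, SE 0.29, adjusted p = 0.819). Skil-202 was at 1.83, 0.122 and 1.87 FPKM in WT and 0, 0 and 0 FPKM in CTGF-/-, that is listed at 0 in every CTGF-/- library, and WT replicate 2 was near 0 as well. Every exonic base of Skil-202 is shared with other listed transcripts of Skil.

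A further 81 ligands, receptors, regulators and targets tied to TGF-β and BMP signalling were followed for comparison, without the members above. They were listed from textbook knowledge, but with earlier results of these data known, and some of the regulators also act outside this pathway. Of these, 54 had a row and 52 were tested, 36 with negative and 16 with positive log2 differences and a median of −0.12. At an unadjusted p under 0.05, 6 were lower (11.5%, against 5.49% of all genes) and 1 was higher, against 3.83% of all genes. By kind, 12 of 15 extracellular regulators, 14 of 20 intracellular regulators, 4 of 8 ligands, 2 of 3 receptors and co-receptors and 4 of 6 targets were negative, beside 55.1% of all genes.

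Ctdsp2, which encodes a phosphatase that can act on Smads, was the 1 gene of this comparison past the adjusted threshold. It fell, with 28.9, 31.2 and 27.6 FPKM in WT and 9.89, 11.6 and 13.1 FPKM in CTGF-/- and a log2 difference of −1.28 (SE 0.11, adjusted p = 0.0123). The adjusted p was 0.0224 to 0.119 leaving out 1 library, and missed the threshold without any 1 WT library or CTGF-/- replicate 2, whereas its log2 difference stayed between −1.36 and −1.18. Twsg1 and Chrdl1 encode secreted BMP-binding proteins. Twsg1 was at 19.2, 20.3 and 19.1 FPKM in WT and 17.6, 15.0 and 16.8 FPKM in CTGF-/-, with separate groups (log2 difference −0.24, SE 0.086, adjusted p = 0.533). Chrdl1 was at 1.56, 1.67 and 1.39 FPKM in WT and 1.25, 0.942 and 0.996 FPKM in CTGF-/-, also separate (log2 difference −0.30, SE 0.10, adjusted p = 0.533).

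Bmp3, a ligand gene, was at 1.17, 1.16 and 1.30 FPKM in WT and 0.794, 0.804 and 1.03 FPKM in CTGF-/-, all CTGF-/- libraries lower (log2 difference −0.24, SE 0.096, adjusted p = 0.533). Fkbp1a, whose product binds type I receptors and keeps them inactive, was at 27.1, 28.4 and 17.0 FPKM in WT and 13.8, 17.2 and 15.7 FPKM in CTGF-/-. For Fkbp1a, WT replicate 3 lay just below the highest CTGF-/- library (log2 difference −0.57, SE 0.19, adjusted p = 0.533). Junb, a target of TGF-β and an immediate early gene, went the other way, at 4.65, 4.55 and 3.90 FPKM in WT and 5.13, 5.34 and 5.38 FPKM in CTGF-/-. All CTGF-/- libraries were above all WT libraries for Junb (log2 difference 0.23, SE 0.092, adjusted p = 0.533).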

How the data were processed

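Per the submitters' processing notes and series text, FastQC, cutadapt, HISAT2 on GRCm38, StringTie and Ballgown were used, with no version named. FPKM was deposited by the authors per gene and per transcript in each library (13072 genes, 26721 transcripts, all typed protein coding). Per the file headers there are also log2 values (a log2 fold change and group means), a ratio (fold), and p-values with q-values, none of which is printed. The authors' log2 fold change matched the group difference of log2(FPKM + 1) to within 5.77e-15, and the lowest higher group mean in the gene table was 0.500 FPKM, so genes below that in both groups are not analysed here. The tables hold no counts, so depth and counting intervals are unknown.

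Here limma 3.58.1 in R 4.3.3 (lmFit, eBayes with trend) was fitted to log2(FPKM + 1) of all 6 libraries wherever their mean reached 0.5 FPKM (12915 genes, 25082 transcripts), with Benjamini-Hochberg adjustment over each table and a threshold of 0.05. The fit was run on simulated data with planted differences larger than that of any member gene. Its recovery of differences as small as those of the member genes was not tested. Genes given in every library are the 12 members with the smallest p, the most abundant of each role and, chosen after their values were seen, Ltbp1, Bmp4, Tgfb1, Tgfb3, Id2, Acvr1, Acvr1-204, Bmpr2-201, Ski-202, Skil-202, Tgif1-202 and Tgfb2-206; 6 other family genes and 6 transcripts follow by p. The members and lists were chosen with earlier results of these data known. The alternatives were a pseudocount of 0.1 FPKM, no filter or a mean of at least 1 FPKM, 2 rescalings, fits without trend, without moderation or with a replicate block, and leaving out each library. Exons came from GENCODE M21 on GRCm38, which holds 32 of the 39 member IDs with their version; coordinates are those deposited.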

Additional observations from a re-analysis of the deposited data

How the results depend on the processing

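No member passed the adjusted threshold in limma with all libraries or in any of the 15 alternatives, and the count of negative members was 27 to 34, with fewer members tested at the stricter filter. The count at an unadjusted p under 0.05 was 4 and became 2 to 5 leaving out 1 library, with 2 without WT replicate 1 and 2 without WT replicate 2. The median of the members was −0.17 at a pseudocount of 0.1, −0.18 at equal FPKM totals, where that of all genes was −0.089, and −0.089 without CTGF-/- replicate 1. For the further family genes the count of 7 became 1 to 9 leaving out 1 library, with 3 without WT replicate 1, 1 without WT replicate 2 and 3 without CTGF-/- replicate 2.

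Over all genes, 6 passed, 1 without moderation, and 2 to 9 leaving out 1 library; over all transcripts 6 passed, 2 without moderation and 1 to 7 leaving out 1 library. With WT replicate 3 and CTGF-/- replicate 2 both left out, a choice made after seeing the data, 0 transcripts passed in limma (1674 at an unadjusted p under 0.05), the median of the members was −0.09, Ski turned to −0.047, Smad7 to −0.011, Smurf1 to −0.052 and Smad1 to 0.013, and Id3 was at −0.019. Ski also turned to −0.047 at equal FPKM totals, and leaving out 1 library gave −0.011 to 0.084 for Ski, −0.30 to 0.027 for Bmp7 and −0.20 to 0.084 for Ltbp3. The cause was not tested. For Ctdsp2 the adjusted limma p was 0.136 with the replicate block, 0.342 without moderation and 0.136 with both libraries left out, within 0.00603 to 0.342 over all alternatives. Replicate numbers did not pair the libraries: the correlations of same-numbered deviations were 0.013, 0.17 and −0.16, and not every library correlated best with its own number. With the replicate block 2 genes, 0 transcripts (1093 at an unadjusted p under 0.05) and no member passed in limma, with 4 members at an unadjusted p under 0.05. Without counts, the counting error of weakly expressed members such as Tgfb1, Bmp4 and Chrd is unknown.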
